A study of Mus musculus with 16 samples.

Results

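Interferon-stimulated genes are switched on when a cell is reached by interferons, the secreted proteins that announce infection or tissue damage. The 37 genes described here were a list of such genes given by name, and all 37 were among the 23179 genes measured by RNA-Seq in mouse mammary adipose tissue, where each was abundant enough to be tested. The tissue came from 16 female C57BL/6N mice of wt genotype, bought as young adults, 4 in each of 4 groups. CON-LFD mice were kept on the control low-fat diet (D12450J) and DIO-HFD mice on a 60% high-fat diet (D12492), which made them obese. DIO-LFD mice were made obese in the same way and then moved to low-fat diet for weight loss, and DIO-VSG mice underwent vertical sleeve gastrectomy, the surgical removal of a large part of the stomach, followed by low-fat diet. The other 3 groups had a sham operation, and every mouse, controls included, was injected in the 4th mammary fat pad with E0771 cells, a mouse mammary cancer line, 22 weeks after the diets were first assigned. The RNA was taken from the 9th fat pad, on the side without the tumor, so that all groups describe fat of mice bearing a tumor elsewhere. The labels give each library its own animal number, so that P values measure the spread between mice. Each library held 46907377 to 57610899 reads.

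Type I interferons signal through the receptor subunits Ifnar1 and Ifnar2 to the kinases Jak1 and Tyk2, which phosphorylate Stat2. A complex that holds Stat2 and Irf9 binds a DNA element called the interferon-stimulated response element (ISRE). Type II interferon (Ifng) signals through Ifngr1 and Ifngr2, acts on another element, the gamma-activated site (GAS), and induces Irf1 and many GTPases of the guanylate-binding and immunity-related families. Many of these genes keep a basal level in uninfected tissue. Adipocytes, macrophages and lymphocytes of fat all carry these receptors.

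The labels also named the E0771 line and mammary cancer as cell type for these samples. The tissue was therefore checked against adipocyte genes, and all 10 listed adipocyte markers were present in every library. The lowest value among them was 1640.4 normalized counts, of Adrb3, the beta-adrenergic receptor of fat, in DIO-HFD replicate 3. Fabp4, a fatty acid carrier of adipocytes, ranged from 187264 to 724048 normalized counts, and Adipoq, which encodes adiponectin, from 30428 to 123530.0. Lymphocyte content differed widely among libraries. A B cell marker score was made as the mean over 12 markers of the log2 value minus that gene's mean over the 16 libraries. It was far below the others in 4 libraries, CON-LFD replicates 2 (−5.67) and 4 (−3.71) and DIO-HFD replicates 2 (−2.47) and 3 (−4.40), lay between −0.16 and 1.04 in DIO-LFD, and was high in all DIO-VSG libraries (1.79 to 2.00). The same 4 libraries were also lowest in T cell (−3.20 to −1.97) and natural killer cell (−1.77 to −1.01) marker scores. They are called B-cell-poor below, although the shortfall was not particular to B cell markers. In whole tissue, fewer cells of a type and less RNA per cell cannot be told apart.

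The elements that interferon signaling uses stand close to the starts of many of these genes. Windows of 300 bases, most of it before and 50 bases after a gene start, were available from RefSeq (GRCm38.p6) for 27 of the 37 genes. They were searched on both strands for GAAANNGAAA (reverse TTTCNNTTTC), the core of an ISRE, and for TTCNNNGAA, a GAS, which reads the same on both strands. Hits of one motif may overlap hits of the other. An ISRE core was found in 17 of the 27 genes (63%), against 3.99% of all 27025 genes with such windows, and a GAS in 8 (29.6%), against 9.55%. In 12 of the 27 an ISRE core stood alone, 3 held a GAS alone, 5 held both and 7 held neither (Cmpk2, Ifi44, Irf7, Irf9, Oasl1, Oasl2 and Xaf1). No window was matched for Oas2, Mx1, Mx2, Dhx58, Usp18, Zbp1, Iigp1, Parp14, Rtp4 and Ifi27. A match to these letters is a description of the sequence and not evidence of binding.

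The stretches below were chosen because they belong to the genes described in most detail and show the 3 arrangements, ISRE cores alone, a GAS alone and both. They are written 5′ to 3′ on the strand of the gene, upstream of the RefSeq start, with 10 bases on each side, fewer where the gene start came first. In Gbp2 and Irgm1 the start in the annotation behind the gene coordinates given with the results is another one, and there the matches lie past that start. Capitals mark the letters that matched either motif. The first group holds ISRE cores alone, overlapping in Isg15, Irgm1 and Gbp3.
Isg15 (chr4:156200865-156200906, minus strand): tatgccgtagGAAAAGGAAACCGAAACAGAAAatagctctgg
Ifit1 (chr19:34640775-34640823, plus strand): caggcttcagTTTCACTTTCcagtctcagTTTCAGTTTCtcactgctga
Stat2 (chr10:128270266-128270295, plus strand): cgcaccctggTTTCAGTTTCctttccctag
Rsad2 (chr12:26456553-26456582, minus strand): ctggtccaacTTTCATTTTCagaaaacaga
Trim30a (chr7:104465210-104465239, minus strand): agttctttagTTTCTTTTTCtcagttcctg
Irgm1 (chr11:48871425-48871460, minus strand): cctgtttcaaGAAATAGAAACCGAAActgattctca
Gbp2 (chr3:142620594-142620623, plus strand): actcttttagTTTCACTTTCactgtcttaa
Gbp3 (chr3:142559989-142560024, plus strand): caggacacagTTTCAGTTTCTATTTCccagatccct
The second group holds both motifs. In Bst2 the GAS and 2 ISRE cores overlap, in Igtp they are 2 bases apart, and Gbp7 has a pair of GAS matches before its ISRE core.
Bst2 (chr8:71537577-71537618, minus strand): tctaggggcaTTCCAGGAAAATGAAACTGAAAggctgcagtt
Igtp (chr11:58199501-58199541, plus strand): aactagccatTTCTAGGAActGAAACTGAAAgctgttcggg
Gbp7, GAS pair (chr3:142530220-142530267, plus strand): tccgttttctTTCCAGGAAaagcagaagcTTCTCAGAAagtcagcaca
Gbp7, ISRE core (chr3:142530273-142530302, plus strand): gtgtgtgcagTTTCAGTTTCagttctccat
Oas1a, GAS (chr5:120907605-120907633, minus strand): aagctcagacTTCAAAGAAcctggtcaga
Oas1a, ISRE cores (chr5:120907526-120907555, minus strand): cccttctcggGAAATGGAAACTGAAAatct
The last is the GAS of Irf1, a transcription factor induced by type II interferon.
Irf1 (chr11:53769914-53769942, plus strand): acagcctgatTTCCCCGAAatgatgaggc

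All 37 genes were present at levels far above the counting limit, with 131 to 18177 reads per gene and library, so that counting error amounted to a coefficient of variation of at most 8.74%. Per kilobase of the longest coding transcript, the mean level over the 16 libraries was highest for Ifi27 (11035 normalized counts per kb), a small mitochondrial and nuclear envelope protein, followed by Bst2 (2957), the tetherin that holds budding virus at the cell surface, and Irf1 (2186). The lowest levels were those of Mx2 (110.0), Oas3 (141) and Oasl1 (182). Between the lowest and the highest library a gene differed by a median of 2.52-fold. Eif2ak2, the kinase that stops translation when it meets double-stranded RNA, was the steadiest (1.49-fold), and Mx1, a dynamin-like GTPase whose protein is truncated in C57BL/6 strains, varied most (8.37-fold). The range exceeded 2-fold in 26 genes and 4-fold in 4.

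Variation among mice of 1 group was large, and it was shared by many of the genes. The mean of the 37 genes in a library, each taken as its log2 value minus its mean over all libraries, was −0.47 in CON-LFD replicate 1 and 0.44 in CON-LFD replicate 3, that is, the lowest and the second highest of all 16 libraries stood in the control group. DIO-LFD replicate 2 was the highest (0.58), with 35 of 37 genes above their mean, while DIO-LFD replicate 4 was at −0.30 with 34 below. Of the 37 genes, 20 had their highest value in DIO-LFD replicate 2 and 8 in CON-LFD replicate 3, whereas 14 had their lowest in CON-LFD replicate 1. Of all genes tested, 3.89%, 2.62% and 4.59% did so in those libraries. The group means of this score were −0.069 ± 0.384 (SD, n = 4) in CON-LFD, 0.036 ± 0.161 in DIO-HFD, 0.090 ± 0.373 in DIO-LFD and −0.057 ± 0.0567 in DIO-VSG, so the groups differed by less than the spread within CON-LFD or DIO-LFD.

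**Figure D1:**
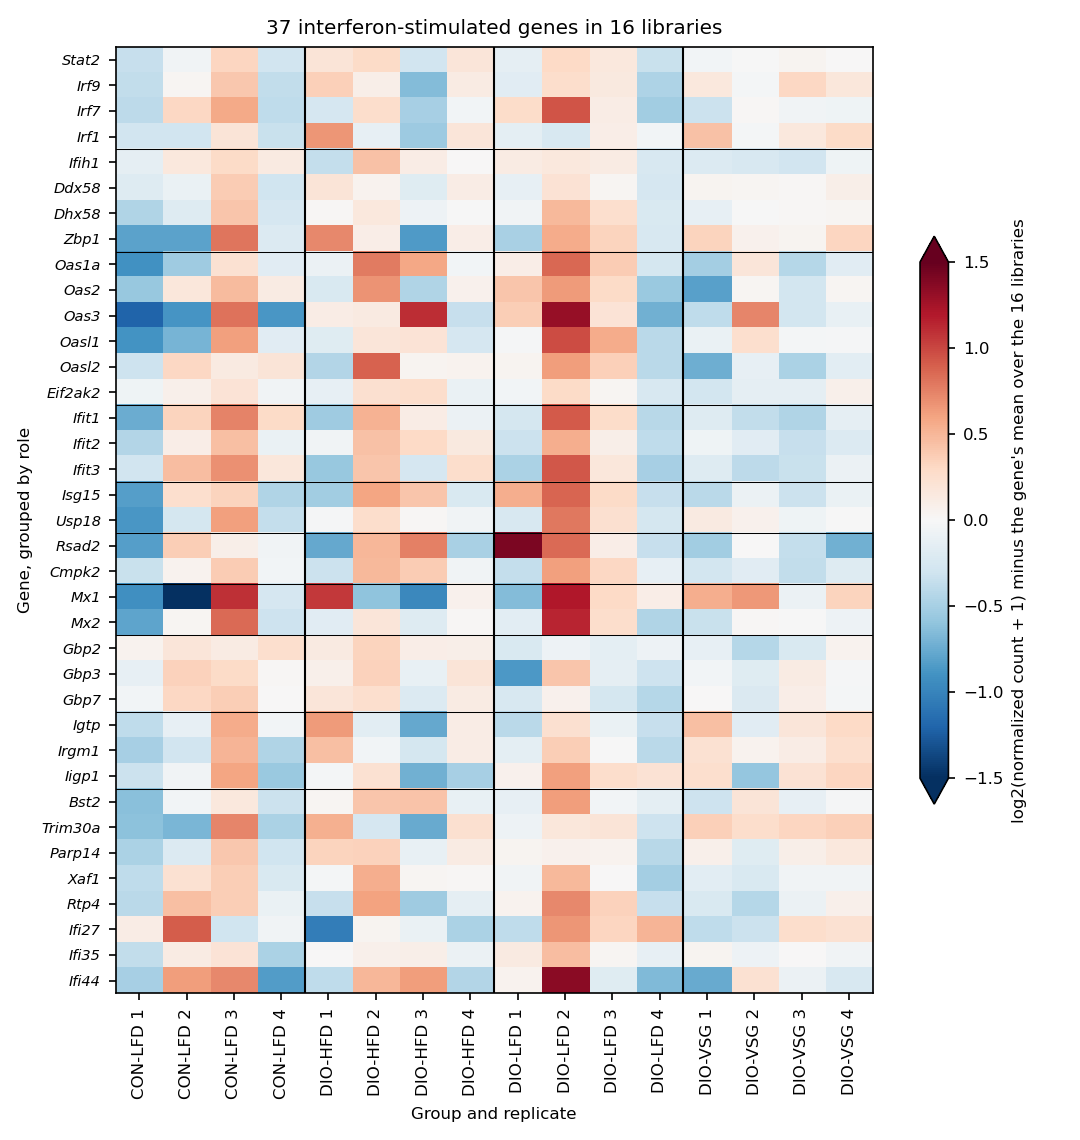
Levels of the 37 interferon-stimulated genes (rows, grouped by role) in the 16 libraries (columns, by group and replicate), as log2(normalized count + 1) minus the mean of the gene over all libraries. DIO-LFD replicate 2 and CON-LFD replicate 3 are high across most rows, CON-LFD replicate 1 is low, and the 4 DIO-VSG columns are paler than the rest.

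The DIO-VSG libraries resembled each other. For 32 of the 37 genes the SD within a group, on the log2 scale, was lowest in DIO-VSG, which was also the group of lowest SD for 46.1% of all genes tested. The median SD of the 37 genes was 0.149 in DIO-VSG against 0.402 in CON-LFD, 0.379 in DIO-HFD and 0.437 in DIO-LFD. The corresponding medians over all genes were 0.211, 0.346, 0.377 and 0.264. The B cell scores lay within 1.79 to 2.00 in DIO-VSG, −0.16 to 1.04 in DIO-LFD, −4.40 to 2.33 in DIO-HFD and −5.67 to 1.94 in CON-LFD, and their part in the spread was not tested.

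**Figure D2:**
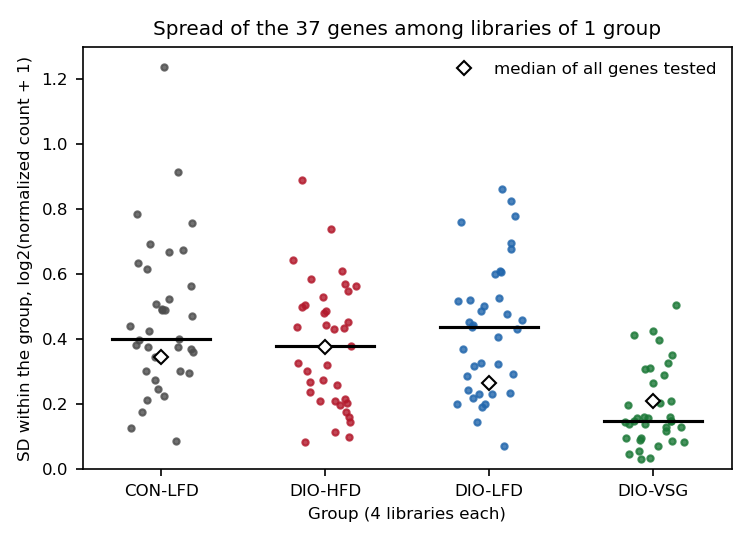
SD among the 4 libraries of a group, on the log2(normalized count + 1) scale, for each of the 37 genes (points), with their median (bar) and the median of all genes tested (open diamond). In DIO-VSG the points cluster around 0.149, and in DIO-LFD they reach far above the diamond at 0.264.

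No gene of the list passed the adjusted threshold of 0.05 in any of the 6 comparisons between groups. Relative to CON-LFD, 0 of 37 passed in DIO-HFD (limma, where 0.0377% of all 21218 genes passed). At an unadjusted P value below 0.05 there was 1 higher and 0 lower, against 5.23% and 7.66% of all genes. This count rested on single libraries, with 9 higher and 1 lower without CON-LFD replicate 3 (8.86% and 10.8% of all genes) and 0 without CON-LFD replicate 1 (3.81% and 5.32%) or 2 (3.79% and 4.74%). The median log2 difference of the 37 genes was 0.11, beside 0.021 over all genes, with 26 above 0 and 11 below. For 31 of the 37, the 95% interval of the difference lay within a 2-fold change in either direction. Full separation of the groups was seen in 0 of 37, against 4.76% of all genes. DIO-HFD mice differed from CON-LFD mice in current diet as well as in obesity, so obesity and diet cannot be told apart in this comparison.

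The 4 transcription factors of the list gave no call in this comparison (smallest limma adjusted P = 0.682). Irf1 and Stat2 passed, higher in DIO-HFD, when libraries were weighted by their estimated quality, along with 19.8% of all genes. Stat2, the type I signal transducer, averaged 3829.9 ± 845 normalized counts in CON-LFD versus 4337 ± 715 in DIO-HFD (SD, n = 4). In CON-LFD, Stat2 was at 3159.6, 3876, 5007 and 3277 normalized counts, in DIO-HFD at 4592, 4912, 3292 and 4552, in DIO-LFD at 3642, 4946, 4498 and 3191 and in DIO-VSG at 3901, 3996, 4136 and 4021. The groups overlapped throughout, and the DIO-VSG libraries lay closest together. Irf7, the factor that amplifies type I interferon production, averaged 2907 ± 982 in CON-LFD versus 2537 ± 569 in DIO-HFD. In CON-LFD, Irf7 was at 2084, 3388, 4058 and 2097 normalized counts, in DIO-HFD at 2299, 3268, 1932 and 2649.9, in DIO-LFD at 3314, 5255, 2959 and 1907 and in DIO-VSG at 2191, 2756, 2631 and 2619. DIO-LFD replicate 2 was the highest of all and DIO-LFD replicate 4 the lowest.

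Irf1 (GRCm38 chromosome 11, 53770014 to 53778374, plus strand, protein coding) reached its extremes within 1 group. In CON-LFD, Irf1 was at 3741, 3738, 5207 and 3618 normalized counts, in DIO-HFD at 7204, 4198, 3140.0 and 5189, in DIO-LFD at 4133, 3880.2, 4912 and 4421 and in DIO-VSG at 6175, 4477, 5109 and 5594. DIO-HFD held both the highest and the lowest library, replicates 1 and 3, which were also those with the highest and, apart from CON-LFD replicate 2, the lowest B cell scores (2.33 and −4.40). Irf9, the DNA-binding partner of Stat2, spanned 2282 to 4733 normalized counts, again with its lowest value in DIO-HFD replicate 3.

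The enzymes Oas1a, Oas2 and Oas3 make the 2-5A signal that activates RNase L. Of these, their relatives Oasl1 and Oasl2 and the kinase Eif2ak2, 5 of 6 had a difference above 0 between DIO-HFD and CON-LFD (median 0.16). An unadjusted P value below 0.05 was found for 1 of 6, against 5.23% of all genes. That call was lost without CON-LFD replicate 1 or 2 or DIO-HFD replicate 2. It was also lost with only the 8 libraries compared and with the macrophage score in the model. Oas1a (chromosome 5, 120896256 to 120907521, minus strand) had the smallest P value of the 37 genes in this comparison. In CON-LFD, Oas1a was at 414, 537, 918 and 691 normalized counts, in DIO-HFD at 732, 1343, 1170.0 and 755, in DIO-LFD at 833, 1424, 1016 and 649.7 and in DIO-VSG at 549.7, 888, 582 and 693. The 4 DIO-HFD libraries overlapped those of CON-LFD, since CON-LFD replicate 3 exceeded DIO-HFD replicates 1 and 4. The log2 difference was 0.65 (SE 0.29, limma adjusted P = 0.361), and it ranged from 0.47 without CON-LFD replicate 1 to 0.85 without CON-LFD replicate 3. Without the 4 B-cell-poor libraries it was 0.27, and with the B cell score also in the model −0.15. Oas3 averaged 484 ± 372 in CON-LFD versus 754 ± 353 in DIO-HFD, with a log2 difference of 0.79 (SE 0.48, limma adjusted P = 0.515). It was 1.24 without CON-LFD replicate 3, 0.50 without DIO-HFD replicate 3, 0.075 without the 4 B-cell-poor libraries and −0.60 when the B cell score was also in the model. Oas1a has close copies in its gene cluster, and reads may have been divided between them.

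Bst2 had the smallest P value among the remaining effectors. In CON-LFD, Bst2 was at 1485, 2218, 2549.8 and 1826 normalized counts, in DIO-HFD at 2331, 3055, 3088 and 2125, in DIO-LFD at 2109, 3549.9, 2235 and 2073 and in DIO-VSG at 1844, 2616, 2103 and 2267. Its log2 difference between DIO-HFD and CON-LFD was 0.40 (SE 0.20, limma adjusted P = 0.428), with overlapping groups. It was 0.26 without CON-LFD replicate 1 and 0.19 without the 4 B-cell-poor libraries, and −0.14 when the B cell score was also in the model.

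On the lower side stood Ifi27 and Ifit3. In CON-LFD, Ifi27 was at 11016, 19270.2, 8322 and 9894 normalized counts, in DIO-HFD at 4982, 10492, 9507 and 7388, in DIO-LFD at 7869.9, 16136, 12743 and 14572 and in DIO-VSG at 7834, 8156, 12326 and 11998. CON-LFD replicate 2 was the highest library and DIO-HFD replicate 1 the lowest. The log2 difference of Ifi27 was −0.56 (SE 0.30, limma adjusted P = 0.454), and it was −0.31 without CON-LFD replicate 2 and −0.35 without DIO-HFD replicate 1. The IFIT proteins bind viral RNA by its 5′ end. In CON-LFD, Ifit3 was at 1694, 2858, 3345 and 2323 normalized counts, in DIO-HFD at 1402, 2763, 1734 and 2484, in DIO-LFD at 1487, 3963, 2334 and 1468 and in DIO-VSG at 1814, 1572, 1642 and 1946. Its difference was −0.29 (SE 0.31, limma adjusted P = 0.738), and with libraries weighted by their estimated quality it became 0.25. Without CON-LFD replicate 1 or DIO-HFD replicate 2 it was −0.48 and −0.44, and without CON-LFD replicate 3 or DIO-HFD replicate 1 it was −0.15 and −0.12. It was −0.79 with the B cell score in the model and the B-cell-poor libraries removed. Ifit3 has a near-identical neighbor, Ifit3b, and reads may have been divided between them.

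Weighting libraries by limma's estimated quality weights changed the calls of this comparison. Under such weights 6 of the 37 genes passed the adjusted threshold, Irf1, Irgm1, Parp14, Stat2 and Trim30a higher and Ifi27 lower in DIO-HFD, along with 19.8% of all genes. The median then was 0.30, against −0.0044 without CON-LFD replicate 1 and 0.26 without CON-LFD replicate 3.

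**Figure D3:**
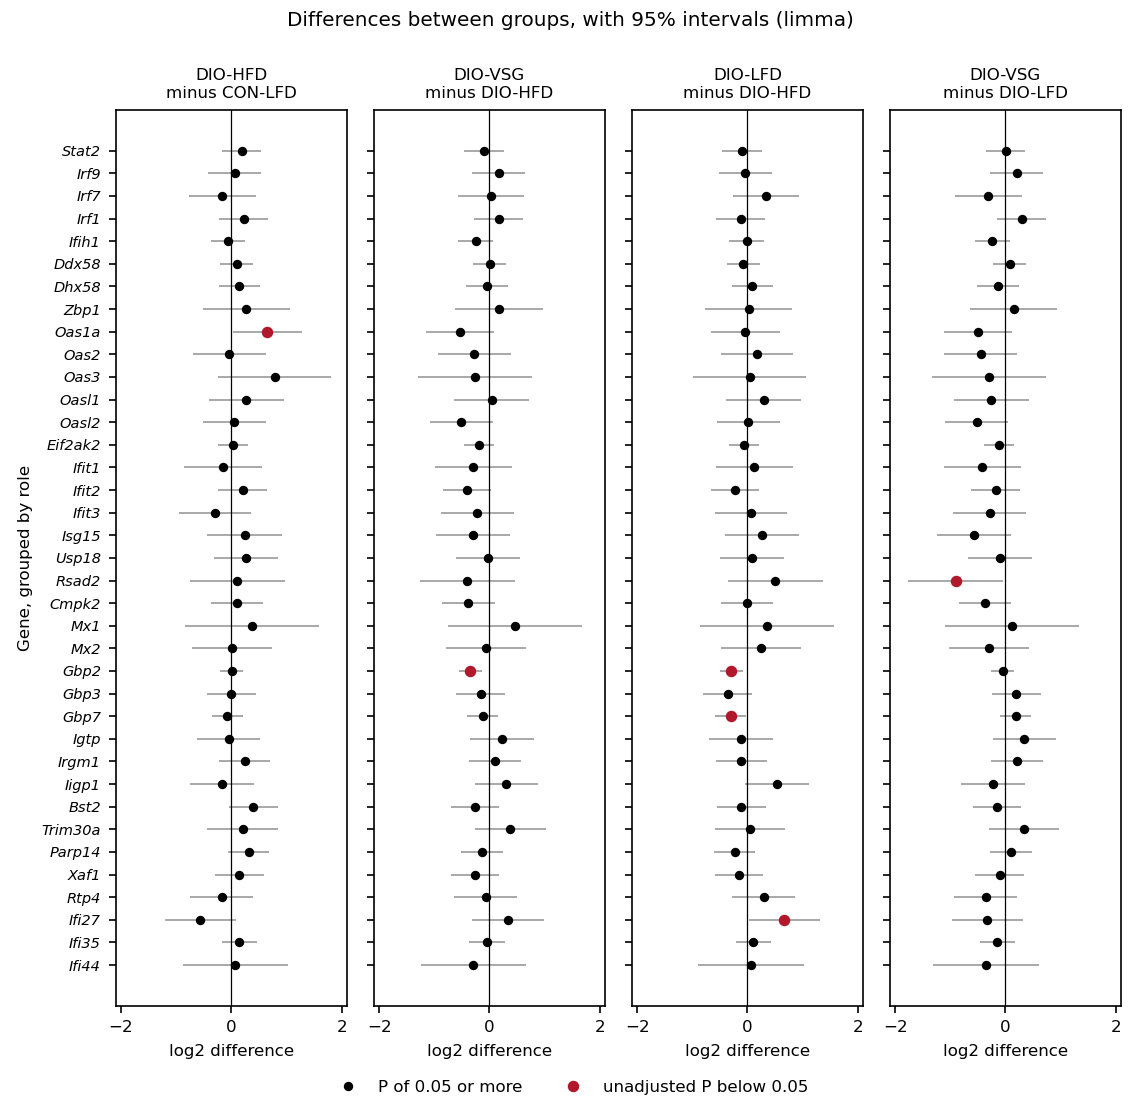
Log2 differences of the 37 genes (rows, grouped by role) in 4 comparisons, with 95% intervals from limma. Red points had an unadjusted P value below 0.05, and none passed the adjusted threshold. The intervals of most genes cross 0, and Gbp2 lies below 0 with a narrow interval in both comparisons of weight loss with DIO-HFD.

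Surgical weight loss was examined by comparing DIO-VSG with DIO-HFD. These groups also differed in current diet, so surgery, weight loss and low-fat diet cannot be told apart. Again 0 of 37 genes passed in limma (0% of all genes), and 0 higher and 1 lower had an unadjusted P value below 0.05, against 5.05% and 8.12% of all genes. Without DIO-HFD replicate 1 the count was 0 higher and 6 lower (14.3% and 13.3% of all genes). The median log2 difference was −0.12 beside 0.02 over all genes, with 12 above 0 and 25 below. It was −0.052 without DIO-HFD replicate 2 and −0.034 with weighted libraries. The 95% interval lay within 2-fold for 30 genes. Full separation of the groups was seen in 3 of 37, Gbp2, Ifit2 and Xaf1, all lower in DIO-VSG, against 6.59% of all genes in either direction.

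Gbp2, a guanylate-binding GTPase that attacks the vacuoles of intracellular pathogens (chromosome 3, 142620602 to 142638008, plus strand, protein coding), had the smallest P value of the 37 genes in this comparison. In CON-LFD, Gbp2 was at 4050.2, 4444, 4267 and 4653 normalized counts, in DIO-HFD at 4277, 4910.2, 4177 and 4144, in DIO-LFD at 3326, 3692, 3518 and 3695 and in DIO-VSG at 3589, 2898, 3328 and 4051. All 4 DIO-VSG libraries and all 4 DIO-LFD libraries lay below the lowest DIO-HFD library. Against CON-LFD the DIO-LFD libraries were all lower, while DIO-VSG replicate 4 just exceeded CON-LFD replicate 1. The mean was 4354 ± 257 in CON-LFD, 4377 ± 360.0 in DIO-HFD, 3558 ± 175 in DIO-LFD and 3467 ± 483 in DIO-VSG.

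The log2 difference of Gbp2 between DIO-VSG and DIO-HFD was −0.34 (SE 0.097, limma adjusted P = 0.257). Between DIO-LFD and DIO-HFD, which share their reference libraries with that comparison, it was −0.30 (SE 0.097, limma adjusted P = 0.463). Against CON-LFD it was −0.34 (SE 0.097, limma adjusted P = 0.268) in DIO-VSG and −0.29 (SE 0.097, limma adjusted P = 0.601) in DIO-LFD. DIO-HFD and CON-LFD differed by 0.006 and the weight-loss groups by −0.047, both within the spread between mice. None of these passed the adjusted threshold, and Gbp2 stayed lower in both weight-loss groups in every alternative and with any library left out. Its smallest difference between DIO-LFD and DIO-HFD was −0.16, with the B cell score in the model and the 4 B-cell-poor libraries removed. With weighted libraries its difference between DIO-VSG and DIO-HFD was −0.25 (limma adjusted P = 0.0241). Over the other alternatives and left-out libraries the adjusted P value in this comparison ranged from 0.0945 to 0.70.

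Ifit2, which binds AU-rich viral RNA, had the next smallest P value. In CON-LFD, Ifit2 was at 1223, 1768, 2264 and 1549 normalized counts, in DIO-HFD at 1601, 2244, 2039.8 and 1826, in DIO-LFD at 1325, 2418, 1762 and 1269.8 and in DIO-VSG at 1581, 1476, 1302 and 1431. The 4 DIO-VSG libraries lay below the lowest DIO-HFD library, by a narrow margin between DIO-VSG replicate 1 and DIO-HFD replicate 1. The log2 difference was −0.41 (SE 0.21, limma adjusted P = 0.392), and −0.24 without the 4 B-cell-poor libraries. All 3 IFIT genes had a difference below 0 (median −0.29), as did 5 of the 6 genes of the synthetase family and Eif2ak2 (median −0.26), Rsad2 and its neighbor Cmpk2, and all 3 guanylate-binding proteins (median −0.16), and no member of these lists other than Gbp2 had an unadjusted P value below 0.05.

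**Figure D4:**
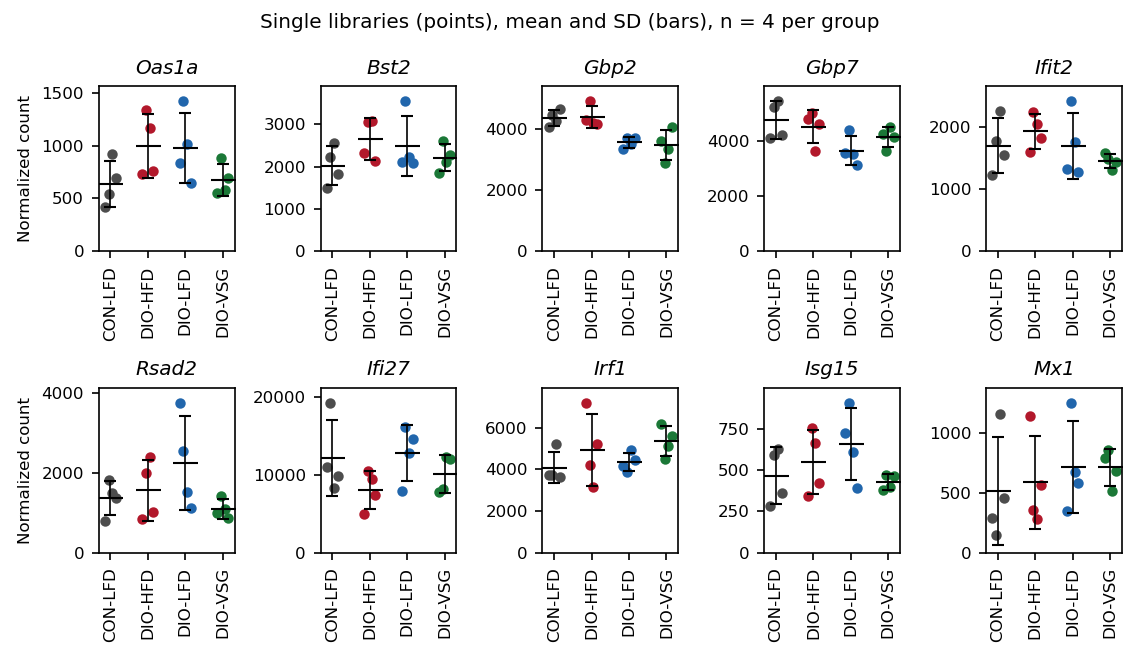
Normalized counts of 10 genes in single libraries (points), with mean and SD (bars, n = 4 per group). Gbp2 is lower in DIO-LFD and DIO-VSG than in every DIO-HFD library, and Rsad2 and Isg15 spread widely in DIO-LFD.

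Genes of the other direction were Trim30a and Iigp1, both with overlapping groups. Trim30a is a regulator of inflammatory signaling. In CON-LFD, Trim30a was at 2613, 2507, 6669.6 and 2886 normalized counts, in DIO-HFD at 5798, 3376, 2389 and 4754, in DIO-LFD at 3816, 4510.1, 4582 and 3252 and in DIO-VSG at 5166, 4817, 5022 and 5152. DIO-VSG was tight, at 4817 to 5166, while CON-LFD replicate 3 stood alone at the top of its group. The log2 difference between DIO-VSG and DIO-HFD was 0.38 (SE 0.30, limma adjusted P = 0.516), and it was 0.15 without DIO-HFD replicate 3, 0.58 without DIO-HFD replicate 1 and 0.11 with weighted libraries. It became −0.024 with the B cell score in the model and −0.060 without the 4 B-cell-poor libraries (−0.020 with both). Iigp1, an immunity-related GTPase, averaged 4372 ± 1301 normalized counts in DIO-HFD versus 5398 ± 1363 in DIO-VSG. In CON-LFD, Iigp1 was at 4039, 4863, 7584 and 3434 normalized counts, in DIO-HFD at 4931, 5924, 3064 and 3571, in DIO-LFD at 5271, 7717, 6041 and 5847 and in DIO-VSG at 6006, 3373, 5883 and 6329.8. Its difference was 0.31 (SE 0.27, limma adjusted P = 0.557), and DIO-VSG replicate 2 was low within its group. Without that library the difference was 0.52. Leaving out replicate 2 of DIO-HFD gave 0.47, leaving out replicate 3 gave 0.15, and with the macrophage score in the model 0.11. All 3 immunity-related GTPases had a difference above 0 (median 0.23), with 0 of 3 at an unadjusted P value below 0.05. With weighted libraries 2 of the 37 genes passed in this comparison, Iigp1 (0.58, limma adjusted P = 0.0267) and Gbp2, along with 17.6% of all genes.

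Dietary weight loss was examined by comparing DIO-LFD with DIO-HFD. Weight loss and the current low-fat diet cannot be told apart in it. The threshold was passed by 0 of 37 genes in limma (0% of all genes). Members at an unadjusted P value below 0.05 numbered 1 higher and 2 lower, against 5.37% and 3.16% of all genes, and 0 higher and 1 lower when replicate 1 or 4 of DIO-HFD or replicate 3 of DIO-LFD was left out (over all genes 4.08% and 3.99%, 4.45% and 3.34%, and 5.16% and 2.61%). Leaving out replicate 2 of DIO-LFD gave 0 higher and 4 lower (3.41% and 2.54%), whereas the B cell score in the model together with removal of the 4 B-cell-poor libraries gave 13 higher and 0 lower (3.2% and 2.12%), with 0 past the adjusted threshold. The median difference was 0.024, beside 0.0088 over all genes, with 20 above 0 and 17 below. It was −0.14 without DIO-LFD replicate 2 and 0.15 without DIO-LFD replicate 4, so the direction of the median rested on single libraries. The groups were fully separated in 1 of 37, Gbp2, against 4.51% of all genes.

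The guanylate-binding proteins Gbp2, Gbp3 and Gbp7 all had differences below 0 (median −0.31), and 2 of the 3 had an unadjusted P value below 0.05, against 3.16% of all genes. These were Gbp2 and Gbp7, and 1 of the 2 calls was left without replicate 1, 3 or 4 of DIO-LFD or replicate 1, 2 or 4 of DIO-HFD. In CON-LFD, Gbp7 was at 4076, 5224, 5429.8 and 4199 normalized counts, in DIO-HFD at 4774, 4998, 3636 and 4583, in DIO-LFD at 3541, 4375, 3508 and 3130.1 and in DIO-VSG at 4219.5, 3624, 4499.6 and 4114. The DIO-LFD libraries were lower except replicate 2, which exceeded DIO-HFD replicate 3. The log2 difference of Gbp7 was −0.31 (SE 0.13, limma adjusted P = 0.552), and against CON-LFD it was −0.38 (SE 0.13, limma adjusted P = 0.623). Gbp3 averaged 3015 ± 407 in DIO-HFD versus 2464 ± 895 in DIO-LFD, with a difference of −0.35 (SE 0.21, limma adjusted P = 0.715) that was −0.14 without DIO-LFD replicate 1 and −0.57 without DIO-LFD replicate 2. With the B cell score in the model and the B-cell-poor libraries removed, the difference of Gbp3 was 0.13 and that of Gbp7 −0.15. These 3 genes are neighbors on chromosome 3 and close in sequence.

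Ifi27 was higher in DIO-LFD than in DIO-HFD by 0.67 (SE 0.30, limma adjusted P = 0.571), with 12830.1 ± 3586 against 8092 ± 2445 normalized counts. DIO-LFD replicates 2, 3 and 4 exceeded every DIO-HFD library, and replicate 1 did not. Without the 4 B-cell-poor libraries the difference of Ifi27 was 1.03. The difference of Iigp1 was 0.54 (SE 0.27, limma adjusted P = 0.626), with 3 of the 4 DIO-HFD libraries below every DIO-LFD library, and it was 1.14 with the score in the model and the B-cell-poor libraries removed. With weighted libraries Ifi27, Iigp1 and Gbp7 passed the adjusted threshold (limma adjusted P = 0.018, 0.0217 and 0.0249), along with 8.54% of all genes.

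Surgical and dietary weight loss were then set against each other. Between DIO-VSG and DIO-LFD, 0 of 37 genes passed in limma (0% of all genes), with 0 higher and 1 lower at an unadjusted P value below 0.05, against 4.3% and 5.41%. The count lower was 6 without DIO-LFD replicate 4 (4.92% of all genes) and 0 without DIO-VSG replicate 1, 3 or 4 (3.27%, 3.57% and 4.92%), and without DIO-LFD replicate 2 there was 1 higher and 0 lower (3.19% and 5.45%). With the B cell score in the model and the 4 B-cell-poor libraries removed, it was 0 higher and 15 lower (1.95% and 2.43% of all genes), of which 0 passed the adjusted threshold. The median was −0.15, beside −0.022 over all genes, with 12 above 0 and 25 below. Without DIO-LFD replicate 2 the median was 0.014, and without DIO-LFD replicate 4 it was −0.25. The groups were fully separated in 1 of 37, Trim30a, whereas this held for 18.8% of all genes.

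Rsad2, which encodes viperin, an enzyme that makes a chain-terminating nucleotide (chromosome 12, 26442746 to 26456452, minus strand, protein coding), had the largest difference. In CON-LFD, Rsad2 was at 798, 1822, 1496 and 1365 normalized counts, in DIO-HFD at 829, 1989.8, 2395 and 1011, in DIO-LFD at 3753, 2550.1, 1519.9 and 1111 and in DIO-VSG at 982, 1421, 1100.3 and 857. DIO-LFD replicates 1 and 2 held the highest values of all 16 libraries, and the groups overlapped. The log2 difference was −0.90 (SE 0.40, limma adjusted P = 0.51), and it was −0.60 without DIO-LFD replicate 1 and −1.19 without DIO-LFD replicate 4.

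Isg15 is the ubiquitin-like modifier whose attachment to proteins marks this response. In CON-LFD, Isg15 was at 279, 592, 628 and 362 normalized counts, in DIO-HFD at 345, 751, 665 and 424, in DIO-LFD at 723, 908, 607 and 389 and in DIO-VSG at 377, 468, 396 and 463. The 4 DIO-VSG libraries lay within 377 to 468, and DIO-LFD replicate 4 fell among them. Its difference between DIO-VSG and DIO-LFD was −0.56 (SE 0.31, limma adjusted P = 0.523), and −0.90 with the B cell score in the model and the B-cell-poor libraries removed.

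Oasl2 is a relative of the synthetases with a ubiquitin-like end. In CON-LFD, Oasl2 was at 2387, 3686, 3242 and 3388 normalized counts, in DIO-HFD at 2191, 5480.1, 3043 and 3079, in DIO-LFD at 3052, 4569, 3787 and 2233 and in DIO-VSG at 1778, 2728, 2138 and 2657. It differed by −0.52 (SE 0.27, limma adjusted P = 0.51), and its groups overlapped. Ifit1 averaged 1279 ± 571 normalized counts in DIO-LFD versus 896 ± 91.8 in DIO-VSG. In CON-LFD, Ifit1 was at 650.0, 1376, 1833 and 1327 normalized counts, in DIO-HFD at 755, 1564, 1179 and 1023, in DIO-LFD at 907, 2069, 1323 and 817 and in DIO-VSG at 955, 845, 794 and 990.2. All 4 DIO-VSG libraries were low, and DIO-LFD replicates 1 and 4, CON-LFD replicate 1 and DIO-HFD replicate 1 lay among or below them. All 6 genes of the synthetase family and Eif2ak2 (median −0.37) and all 3 IFIT genes (median −0.29) had a difference below 0, with none at an unadjusted P value below 0.05 among these 9. DIO-LFD replicate 2 stood apart in both groups of genes, with mean log2 scores of 0.78 and 0.80.

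In the other direction Irf1 differed by 0.30 (SE 0.21, limma adjusted P = 0.565) and Gbp7 by 0.18 (SE 0.13, limma adjusted P = 0.573). With the B cell score in the model the difference of Irf1 was 0.18, and with the B-cell-poor libraries also removed the differences of Irf1 and Gbp7 were 0.012 and −0.025. That of Gbp7 was 0.28 without DIO-LFD replicate 2 and 0.11 without DIO-LFD replicate 4. Irf1 averaged 4337 ± 443 in DIO-LFD versus 5339 ± 721 in DIO-VSG, with overlapping groups. Trim30a was higher in every DIO-VSG library than in every DIO-LFD library, a separation that 18.8% of all genes also had. Its log2 difference was 0.33 (SE 0.30, limma adjusted P = 0.626), and the DIO-VSG libraries were also higher in B cell score. With that score in the model the difference was 0.14, and with the B-cell-poor libraries also removed −0.28.

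The weight-loss groups were also compared with the mice that were never obese. In DIO-VSG relative to CON-LFD, 0 of 37 passed in limma (0% of all genes), with 0 higher and 1 lower at an unadjusted P value below 0.05, against 10.2% and 7.55% of all genes. That gene was Gbp2, and the median was −0.039 (all genes −0.021). Without CON-LFD replicate 3 the median was 0.22, the unadjusted count was 10 higher and 1 lower (17.9% and 12.6% of all genes), and Trim30a passed (limma adjusted P = 0.0491), along with 4.11% of all genes. Leaving out CON-LFD replicate 1 gave 0 higher and 4 lower at the unadjusted level (7.59% and 4.67%), and the score in the model with the B-cell-poor libraries removed gave 0 and 5 (1.14% and 1.05%). The groups were fully separated in 0 of 37, against 7.02% of all genes. With weighted libraries Irf1, Irgm1 and Trim30a passed, along with 19.9% of all genes.

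In DIO-LFD relative to CON-LFD, 0 of 37 passed in limma (0.00471% of all genes), with 0 higher and 2 lower, Gbp2 and Gbp7, against 3.23% and 3.03%. The median was 0.12 (all genes 0.017) and 27 of 37 differences were above 0. Without DIO-LFD replicate 2 the median was −0.019. Full separation was seen in 1 of 37, Gbp2, against 3.53% of all genes. The unadjusted count was 9 higher and 2 lower without CON-LFD replicate 3 (7.6% and 4.91% of all genes), 5 and 2 without DIO-LFD replicate 4 (2.97% and 2.68%), and 12 and 2 with weighted libraries (8.14% and 8.88%).

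The genes of the list differed in their relation to lymphocyte markers, a result added after the data had been seen. In a model with group and the B cell score, the slope of each gene on the score describes how it varied with B cell markers among mice of the same group. The slope was positive and past the adjusted threshold in 6 of 37 genes, against 16.9% of all genes, and negative in 0, against 11.6%, so that positive slopes were about as frequent as over all genes. The 6 were Mx1, with a log2 change per unit of the score of 0.28 (SE 0.065, limma adjusted P = 0.00679), Zbp1 at 0.16 (SE 0.047, limma adjusted P = 0.0226), Trim30a at 0.15 (SE 0.031, limma adjusted P = 0.0024), Igtp at 0.11 (SE 0.036, limma adjusted P = 0.0328), Irf1 at 0.097 (SE 0.024, limma adjusted P = 0.0101) and Irgm1 at 0.085 (SE 0.03, limma adjusted P = 0.0491). Zbp1 senses left-handed nucleic acid and starts inflammatory cell death, and Igtp and Irgm1 are GTPases that act on pathogen vacuoles and mitochondria. At the other end were Rsad2 at −0.15 (SE 0.056, limma adjusted P = 0.0547) and Ifi27 at −0.11 (SE 0.043, limma adjusted P = 0.0716). Isg15 was at −0.077 (SE 0.051, limma adjusted P = 0.27) and the 3 IFIT genes between −0.044 and −0.003.

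The values of Mx1, named here after they were seen, followed the score in part. In CON-LFD, Mx1 was at 287, 149, 1159.6 and 455 normalized counts, in DIO-HFD at 1138, 357, 278 and 567, in DIO-LFD at 346, 1252, 669.9 and 584 and in DIO-VSG at 792, 854, 510.1 and 684. The B-cell-poor CON-LFD replicate 2 and DIO-HFD replicate 3 had the lowest values of their groups, whereas the B-cell-poor CON-LFD replicate 4 was above replicate 1, whose score was 0.024. DIO-HFD replicate 1 and CON-LFD replicate 3, with the highest scores of their groups, had the highest. In DIO-LFD too, replicate 1 was lowest and replicate 2 highest in both. In DIO-VSG, where the scores hardly varied, replicate 3 had the lowest Mx1 at a score of 2.00.

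In CON-LFD, Zbp1 was at 717, 718, 2190.0 and 1090.2 normalized counts, in DIO-HFD at 2059.8, 1342, 697 and 1342, in DIO-LFD at 894, 1846, 1583 and 1059 and in DIO-VSG at 1582, 1310.5, 1289 and 1573. As for Mx1, the highest libraries of CON-LFD and DIO-HFD were those with the highest score, while the B-cell-poor DIO-HFD replicate 2 was level with replicate 4. CON-LFD replicate 1, with a score of 0.024, was level with the B-cell-poor replicate 2 and below the B-cell-poor replicate 4. In CON-LFD, Igtp was at 1602, 1917, 3069 and 2026 normalized counts, in DIO-HFD at 3251, 1872, 1227 and 2252, in DIO-LFD at 1571, 2454, 1937 and 1632 and in DIO-VSG at 2836, 1846, 2367 and 2562. DIO-HFD replicates 1 and 3 held the highest and the lowest value of all. Among CON-LFD libraries, Igtp was lowest in replicate 1, below the B-cell-poor replicates 2 and 4. In CON-LFD, Irgm1 was at 1979, 2292, 3979.6 and 2039.8 normalized counts, in DIO-HFD at 3819.8, 2701, 2321 and 3017, in DIO-LFD at 2513, 3613, 2779 and 2117 and in DIO-VSG at 3270.4, 2896, 3009 and 3335. CON-LFD replicate 3 was highest, and its group also held the lowest library, replicate 1, which is not poor in B cell markers.

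The 4 B-cell-poor libraries form a cluster apart, and the slopes rest on them in part. Among the other 12 libraries 2 of the 6 genes passed, along with 3.66% of all genes, Mx1 with a slope of 1.08 and Zbp1 with 0.79. Trim30a had 0.50 (limma adjusted P = 0.0531), Igtp 0.47 (0.0601), Irgm1 0.41 (0.102) and Irf1 0.23 (0.254), and the slope of Ifi27 turned to 0.047 (0.936). That of Rsad2 was −0.047 (limma adjusted P = 0.957). The count was 2 without CON-LFD replicate 3, and likewise 2 without replicate 1 or 3 of DIO-HFD, where 12.1%, 10.9% and 13.7% of all genes passed, while it was 8 without CON-LFD replicate 1 (18% of all genes) or 2 (18.3%). Trim30a passed whichever single library was left out. Negative slopes past the threshold numbered 0 to 2, with 2 without CON-LFD replicate 3 (5.7% of all genes) and without DIO-LFD replicate 1 (12.3%). With a T cell score in place of the B cell score there were 5 positive (18.6% of all genes) and 1 negative (13.7%), Rsad2 at −0.24 (limma adjusted P = 0.0275). In the 12 libraries with the B cell score in the model, the median difference of the 37 genes was 0.56 between DIO-LFD and DIO-HFD and −0.66 between DIO-VSG and DIO-LFD, and 0 of 37 passed the adjusted threshold in any comparison. The 2 DIO-HFD libraries in that fit had scores of 2.33 and 1.64, and those of DIO-LFD and DIO-VSG did not overlap, so in that fit DIO-LFD had no score in common with DIO-HFD or DIO-VSG. On a macrophage score, 0 of 37 genes had a slope past the threshold in either direction, with a smallest unadjusted P value of 0.0603, against 0.74% (higher) and 0.00471% (lower) of all genes.

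**Figure D5:**
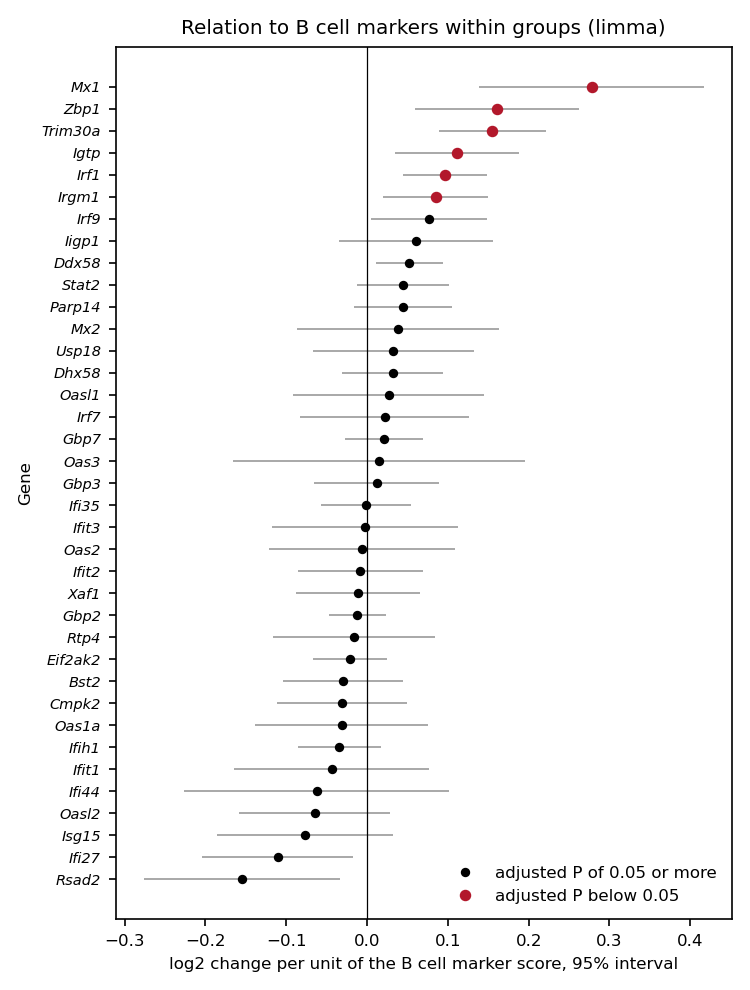
Log2 change of each of the 37 genes per unit of the B cell marker score, from a limma fit with group in the model, with 95% intervals. The 6 genes in red, from Irgm1 up to Mx1, passed the adjusted threshold, and Rsad2 and Ifi27 lie at the lower end.

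The remaining genes are given by their group means with SD in normalized counts (n = 4), always from CON-LFD through DIO-HFD and DIO-LFD to DIO-VSG, and all had overlapping groups in every comparison except where stated. Among the sensors of viral nucleic acid, Ddx58 (RIG-I) averaged 4264 ± 964, 4505 ± 481, 4289 ± 601 and 4498 ± 95.6. Ifih1 (MDA5), which senses long double-stranded RNA, averaged 3009.9 ± 354, 2923 ± 653, 2867 ± 355 and 2417 ± 166. Dhx58 averaged 881 ± 250.02, 950.2 ± 65.8, 1029 ± 227 and 921 ± 44.4.

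Oas2 averaged 1706 ± 472, 1685 ± 607, 1907 ± 593 and 1371 ± 341 and Oasl1, which dampens translation of Irf7, 336 ± 169.7, 376 ± 61.7, 488 ± 203 and 384 ± 44. Eif2ak2 averaged 2924 ± 261, 2999 ± 434, 2873 ± 442 and 2620.3 ± 273, with little variation among groups. Mx2, annotated as a polymorphic pseudogene in this reference, averaged 264 ± 134, 246 ± 30.6, 317 ± 168 and 236 ± 25. Usp18, the protease that removes Isg15, averaged 898 ± 414, 1013 ± 106, 1117 ± 413 and 996 ± 58.2 and Cmpk2, a mitochondrial nucleotide kinase, 1003 ± 208, 1091 ± 277, 1091 ± 331 and 819 ± 50.9. In all 6 the DIO-VSG libraries overlapped those of CON-LFD.

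Irf9 averaged 3473 ± 939, 3636 ± 967, 3502 ± 760.2 and 3984 ± 379.9 and Gbp3 3033 ± 467, 3015 ± 407, 2464 ± 895 and 2692 ± 241. Among other effectors, Xaf1 averaged 1597 ± 392, 1747 ± 355, 1596 ± 453 and 1441 ± 86.7, and its DIO-VSG libraries (at most 1514) lay just below the lowest DIO-HFD library (1533). Parp14, an ADP-ribosyltransferase of the antiviral response, averaged 7351 ± 2116, 8954 ± 1291, 7627 ± 1129 and 8115 ± 791, and Ifi35 and Ifi44, both named for their induction by interferon, 1692 ± 399.6, 1837 ± 103, 1999 ± 351 and 1787 ± 67.8 and 641 ± 322, 642 ± 245, 736 ± 503 and 511 ± 139. Rtp4, a chaperone of receptors that also restricts viruses, averaged 1539 ± 411, 1390.1 ± 530.0, 1685 ± 523 and 1274 ± 186. The spread of each of these was larger in CON-LFD than in DIO-VSG.

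The genes also differed in how closely they followed the rest of the list. As a description over 16 libraries of the same tissue and size factors, Pearson's r of a gene with the mean of the other 36 was 0.96 for Mx2, 0.96 for Dhx58, a helicase that regulates RNA sensing, 0.93 for Usp18 and 0.88 for Xaf1, a promoter of apoptosis. It was 0.054 for Ifi27, 0.075 for Gbp2 and 0.076 for Irf1.

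Of the pathway around the list, 117 further genes were tested. Of 13 listed interferon ligands only Ifng was in the deposited table, from which the authors had removed genes with few reads. In CON-LFD, Ifng was at 9.93, 3.18, 19.4 and 4.02 normalized counts, in DIO-HFD at 38.9, 3.32, 6.55 and 18, in DIO-LFD at 5.46, 6.94, 11.4 and 5.11 and in DIO-VSG at 17.6, 7.2, 5.13 and 20. These are near the counting limit in several libraries, and the groups overlapped. All 6 receptor subunits were present. Ifnar1 averaged 4178 ± 534, 4428 ± 852, 3851 ± 386 and 4615 ± 164 in the same order, Ifnar2 at 3583 ± 321, 3674 ± 226, 3394 ± 357 and 3527 ± 177, and Ifngr1 at 9853 ± 1265, 10001 ± 985, 12358 ± 7672 and 8559 ± 2136. DIO-LFD replicate 1 set the wide spread of Ifngr1, with 23682. The other chains, Ifngr2, Ifnlr1 and Il10rb, averaged 2621, 680.2 and 2884 over the 16 libraries.

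In limma 0 of the 117 genes passed the adjusted threshold in any comparison. At an unadjusted P value below 0.05, 3 were higher and 2 lower in DIO-HFD than in CON-LFD (over all genes 5.23% and 7.66%), 3 and 5 in DIO-VSG relative to DIO-HFD (5.05% and 8.12%), 3 and 3 between DIO-LFD and DIO-HFD (5.37% and 3.16%), and 9 and 8 in DIO-VSG relative to DIO-LFD (4.3% and 5.41%). In DIO-LFD against CON-LFD 4 were higher and 2 lower (3.23% and 3.03%). Relative to CON-LFD, 28 were higher and 5 lower in DIO-VSG, where the background was 10.2% and 7.55%, and the 4 DIO-VSG libraries were also high in B cell markers.

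In the 3 comparisons with DIO-HFD and in that between the weight-loss groups, the smallest P value of these genes belonged to a further target of type II interferon. Nos2 is the inducible nitric oxide synthase. In CON-LFD, Nos2 was at 239, 384, 249 and 318 normalized counts, in DIO-HFD at 353, 693, 1119 and 401, in DIO-LFD at 522, 793, 321 and 523 and in DIO-VSG at 280.1, 208, 249 and 229.7. Every DIO-VSG library was below every DIO-HFD and DIO-LFD library, a separation from DIO-LFD that 45 of the 117 genes and 18.8% of all genes also had. The log2 difference was 0.98 (SE 0.33, limma adjusted P = 0.26) between DIO-HFD and CON-LFD, −1.26 (SE 0.33, limma adjusted P = 0.246) between DIO-VSG and DIO-HFD, and −1.09 (SE 0.33, limma adjusted P = 0.509) between DIO-VSG and DIO-LFD. Without the 4 B-cell-poor libraries the first 2 were 0.62 and −0.65.

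Ido1, which degrades tryptophan, was at 181, 2256, 5429 and 884 in CON-LFD, 888, 464, 1893 and 739.9 in DIO-HFD, 2257, 9912, 3361 and 8081 in DIO-LFD and 3456, 2968, 4174 and 7278 in DIO-VSG, so that both weight-loss groups lay above all DIO-HFD libraries, while CON-LFD held the lowest library of all. Its difference from DIO-HFD was 2.51 (SE 0.83, limma adjusted P = 0.463) in DIO-LFD and 2.27 (SE 0.83, limma adjusted P = 0.309) in DIO-VSG. The former was 5.17 when the B cell score was in the model and the B-cell-poor libraries were removed. Gbp11, a further guanylate-binding protein, had a difference of −1.71 (SE 0.56, limma adjusted P = 0.251) between DIO-HFD and CON-LFD, with 193 ± 94.3 against 622 ± 267 normalized counts. With weighted libraries the difference was −1.06. In CON-LFD, Gbp11 was at 674, 967, 506 and 342 normalized counts, in DIO-HFD at 125, 207, 118 and 320.4, in DIO-LFD at 361, 626, 725 and 142 and in DIO-VSG at 341, 148, 733 and 246. Every DIO-HFD library was below every CON-LFD library, as the groups were separated in 2 of the 117 genes and 4.76% of all genes. Gbp4 was at 3111 ± 196 in DIO-LFD, 4775 ± 1646 in DIO-HFD and 4905 ± 932 in DIO-VSG, with differences of −0.56 (SE 0.23, limma adjusted P = 0.533) between DIO-LFD and DIO-HFD and 0.64 (SE 0.23, limma adjusted P = 0.509) between DIO-VSG and DIO-LFD. In CON-LFD, Gbp4 was at 3518, 3571, 5268 and 2747 normalized counts, in DIO-HFD at 7028, 4278, 3103 and 4691, in DIO-LFD at 3209, 2834, 3118 and 3282 and in DIO-VSG at 5828, 3661, 4790.0 and 5342. DIO-LFD was tight and, except against DIO-HFD replicate 3, below DIO-HFD and DIO-VSG. Without DIO-HFD replicate 1 the difference of Gbp4 between DIO-LFD and DIO-HFD was −0.35, and without the 4 B-cell-poor libraries it was −0.89. Between DIO-VSG and DIO-LFD it was 0.34 with the B cell score in the model and those libraries removed. None of these 4 genes passed the adjusted threshold with all 16 libraries weighted equally. With weighted libraries Nos2 and Ido1 passed between DIO-VSG and DIO-HFD (17.6% of all genes) and Ido1 and Gbp4 between DIO-LFD and DIO-HFD (8.54%). With only the 8 libraries of DIO-VSG and DIO-LFD in the fit, Nos2 and Gbp4 passed (limma adjusted P = 0.0393 and 0.0336). In that fit 15.6% of all genes were higher and 9.64% lower at an unadjusted P value below 0.05.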

How the data were processed

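RNA was extracted from the contralateral mammary fat pad of 16 mice, 4 per group, and sequenced as strand-specific total RNA libraries. The authors deposited one table of log2 values for 23179 genes, which they had made with DESeq2's variance-stabilizing transformation. The submitters' processing notes name TopHat2 2.0.7, HTSeq 0.5.3p9 and mm10, whereas the study's methods name another aligner and quantifier, so the mapping is uncertain. Reads of near-identical copies could have been divided among them. All columns were matched to a sample by animal number (0 columns without a sample).

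The deposited log2 values, from 5.36 to 21.85, were turned back to normalized counts. Multiplied by each library's size factor, 100% of values were whole reads within a tolerance of 0.01. Library totals were 46907377 to 57610899 reads, and intervals cover the spread between mice, not only counting error.

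Group differences were tested with limma 3.58.1 (limma-trend, R 4.3.3) on log2(normalized count + 1) for 21218 genes that reached 10 normalized counts in 4 or more libraries, with group as the only term, two-sided, and Benjamini-Hochberg adjustment over all genes tested. The fold scale understates changes of low genes. Slopes on the marker scores came from fits with group and score. The fits were tested on simulated data.

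Values in every library are given for members with a B cell slope past the adjusted threshold, for the 2 with the smallest P value in each direction in the 3 comparisons of DIO-HFD and in DIO-VSG against DIO-LFD, and for Isg15, Irf7, Stat2, Ifit1, Irf1 and Gbp2. For the pathway they cover Ifng and the gene with the smallest P value in each direction, and the receptors are given by their means. Some items are not reported here. Mx1 and Xaf1 were described further after their values were seen. The members and all lists were chosen with earlier results of these data known.

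Alternatives were the deposited values, another pseudocount, no filter, other scalings, only the 8 libraries compared, library weights, a replicate block, cell scores as covariates, and each library left out. Gene positions came from GENCODE M21 (GRCm38) and promoter windows from RefSeq (GRCm38.p6).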

Additional observations from a re-analysis of the deposited data

Results flagged for a closer look

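In each group of 4 libraries, the highest and the lowest value of each of the 37 genes were compared with the rest by Dixon's gap test. Of 148 sets of 4 libraries looked at, 8 held a library whose gap to its nearest neighbor took up more of the range than the 95% critical value. Chance flags about 1 in 20 such sets.

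CON-LFD replicate 3 stood high for Oas3 (1041 normalized counts), Irf1 (5207) and Trim30a (6669.6). DIO-LFD replicate 4 stood low for Ifih1 (2337) and Parp14 (5936), and DIO-LFD replicate 2 stood high for Bst2 (3549.9). DIO-HFD replicate 2 stood high for Xaf1 (2277), and DIO-VSG replicate 2 stood low for Iigp1 (3373). CON-LFD replicate 3 had the highest B cell score of its group, and its part in these values was not tested.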

How the results depend on the processing

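No member passed the adjusted threshold under any alternative applied to all 16 libraries except library weights. With these weights 6 members passed in DIO-HFD minus CON-LFD (limma, 19.8% of all genes) and 2 in DIO-VSG minus DIO-HFD (17.6%). They numbered 3 in DIO-LFD minus DIO-HFD (8.54%) and 3 in DIO-VSG minus CON-LFD (19.9%). In DIO-VSG minus DIO-LFD (0.867%) and DIO-LFD minus CON-LFD (0.25%) the number was 0. The cause was not tested. With each library left out the count ranged from 0 to 1 for DIO-VSG minus CON-LFD and was 0 elsewhere. Besides the medians below, direction turned for Ifit3 in DIO-HFD minus CON-LFD with library weights (0.25), for Trim30a in DIO-VSG minus DIO-HFD with the B cell score as covariate (−0.024) and without the 4 B-cell-poor libraries (−0.060) and with both (−0.020), and for the slope of Ifi27 without those libraries (0.047).

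A replicate block cannot move a difference in this balanced design (the median in DIO-HFD minus CON-LFD is 0.11 by construction), and with it 0 members passed the adjusted threshold. Correlations of same-numbered libraries' deviations ran from −0.609 to 0.534, with 9 of 24 pairs over 0.1. They show no steady pairing by number but cannot exclude one, as lymphocyte content also differed among these libraries. Leaving out the B-cell-poor libraries, with or without the score as covariate, and the alternatives for the slopes, were chosen after seeing the data.

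Leaving out single libraries moved the median of the 37 genes between −0.0044 and 0.26 in DIO-HFD minus CON-LFD, −0.15 and −0.052 in DIO-VSG minus DIO-HFD, −0.14 and 0.15 in DIO-LFD minus DIO-HFD, −0.25 and 0.014 in DIO-VSG minus DIO-LFD, −0.19 and 0.22 in DIO-VSG minus CON-LFD, and −0.019 and 0.26 in DIO-LFD minus CON-LFD. The median also turned to −0.059 in DIO-LFD minus DIO-HFD with library totals and, in DIO-VSG minus CON-LFD, to 0.23 with library weights and 0.070 with library totals. With the B cell score as covariate and without the 4 B-cell-poor libraries, the median moved to −0.31 in DIO-HFD minus CON-LFD, 0.56 in DIO-LFD minus DIO-HFD, −0.66 in DIO-VSG minus DIO-LFD and −0.35 in DIO-VSG minus CON-LFD, and direction also turned for Oas1a (−0.15), Oas3 (−0.60) and Bst2 (−0.14) in DIO-HFD minus CON-LFD, Gbp3 (0.13) in DIO-LFD minus DIO-HFD and Gbp7 (−0.025) and Trim30a (−0.28) in DIO-VSG minus DIO-LFD, with 0 members past the adjusted threshold in each comparison. With 4 mice a group the 95% interval lay within a 2-fold change for 27 to 31 of the 37 genes, depending on the comparison. Depth limited none of the 37 genes, the lowest of which had 131 reads in a library.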
